A study of Mus musculus with 31 samples.

Results

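The 45 genes described here encode the vacuolar proton pump (V-ATPase) and core proteins of the lysosome, chosen by name and function from the 55379 genes of the count table and not by how they changed. They comprise 16 V-ATPase genes (6 for the membrane sector, 8 for the catalytic sector and 2 for accessory proteins) and 29 other lysosomal genes (5 membrane proteins, 8 proteases, 8 glycosidases, 6 lipid hydrolases and activators, and 2 regulators). All 45 passed the filter on low counts, as did 14362 genes in all. They were measured by RNA-seq in mammary gland of C57BL/6J dams on lactation day 10, with 31 libraries in 4 groups. Dams ate a breeder diet with 4 mg folic acid per kg or a folic acid supplemented diet (FA diet) with 24 mg per kg, starting 2 weeks before mating. From embryonic day 13 to lactation day 10 they were injected with fluoxetine, a selective serotonin reuptake inhibitor, at 20 mg per kg body weight per day, or with saline. The groups were breeder diet with saline (n = 8 dams), breeder diet with fluoxetine (n = 7), FA diet with saline (n = 8) and FA diet with fluoxetine (n = 8), all of 1 strain with no genetic change.

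Lysosomes are acid organelles in which hydrolases break down proteins, glycans and lipids delivered by endocytosis and autophagy. The V-ATPase makes them acid: its V1 sector hydrolyses ATP on the cytosolic face, and its V0 sector carries protons through the membrane. The transcription factor TFEB switches on many of these genes through a short promoter element, the CLEAR element, when lysosomes are stressed or nutrients are scarce. Fluoxetine is a cationic amphiphilic drug, a weak base that is trapped in acid compartments, which is why lysosomal transcripts are of interest under this treatment. In the mammary gland lysosomes are best known for their part in involution after weaning, whereas these dams were lactating.

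The CLEAR element is the sequence feature by which these genes are usually grouped, so the promoters of the members were searched for its palindromic core TCACGTGA (read the same on both strands). RefSeq promoters (300 bases, from 250 before to 50 after a transcription start) were on hand for 38 of the 45 members, and 7 of the 38 (18.4%) held the core, compared with 1.12% of the 27025 genes with a promoter in the table and 2.18% of the 10339 of them that passed the filter here. The 6-base E-box CACGTG, which lies inside that core, was in 14 of the 38 members (36.8%), in 8.09% of all genes and in 11.4% of genes that passed the filter. The sites in these 7 members are shown because promoter sequence was not used to choose the members. Lysosomal genes are usually grouped by this element, so its higher share in a lysosomal list is not an independent result. Each line gives the strand of the gene from 5′ to 3′, with the core in capitals and 11 bases on either side.
Atp6v0d1: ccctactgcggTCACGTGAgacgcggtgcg
Atp6v0e: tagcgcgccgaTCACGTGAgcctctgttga
Atp6v1a: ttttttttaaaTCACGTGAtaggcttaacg
Ctsa, first site: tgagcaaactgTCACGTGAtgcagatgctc
Ctsa, second site: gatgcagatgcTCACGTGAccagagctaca
Ctsd: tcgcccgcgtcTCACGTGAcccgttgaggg
Gla, first site: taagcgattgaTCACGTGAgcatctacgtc
Gla, second site: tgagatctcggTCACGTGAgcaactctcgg
Mcoln1: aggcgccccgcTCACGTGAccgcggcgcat

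Each of these sites matched 1 place on its chromosome in GRCm39. They lie at chr8:106292682-106292711 on the minus strand (Atp6v0d1), chr17:26895361-26895390 on the plus strand (Atp6v0e), chr16:43959736-43959765 on the minus strand (Atp6v1a), chr2:164675669-164675698 and chr2:164675686-164675715 on the plus strand (Ctsa), chr7:141941645-141941674 on the minus strand (Ctsd), chrX:133501964-133501993 and chrX:133501931-133501960 on the minus strand (Gla) and chr8:3550462-3550491 on the plus strand (Mcoln1). Measured from the RefSeq start, the core began 4 bases upstream in Atp6v0d1, 46 in Mcoln1, 99 in Ctsd, 132 in Atp6v1a, and 228 and 195 in Gla. It lay outside every annotated exon of its gene in Gla only; at the other 7 sites it lay within an exon of at least 1 annotated transcript. A match describes these letters and does not show that a factor binds there.

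All 45 members were detected, over a wide range of levels. Compared per kilobase (kb) of annotated exon, the median member had 5.22 CPM per kb (CPM are counts scaled to the library total times its TMM factor), and the median of all genes tested was 0.877. Exon lengths are the union over all annotated transcripts, so rare transcripts lower these values. The highest was Ctsd, the aspartic protease cathepsin D, with a mean of 89.8 CPM per kb, followed by Psap, the precursor of the saposins that help degrade sphingolipids, at 79.5 and Ctsb, the cysteine protease cathepsin B, at 57.6. The lowest was Gla, which encodes alpha-galactosidase A, at 0.188, with 460 counts over the 31 libraries in total. Tfeb itself was among the low members at 1.08 CPM per kb, close to Lgmn (legumain, a cysteine protease that activates cathepsins) at 1.1.

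The other hydrolases covered the main classes of substrate. Of the proteases, Ctsz (cathepsin Z, a carboxypeptidase) was at 21.8 CPM per kb and Ctsl (cathepsin L, an endopeptidase) at 15.5, with Ctsa at 8.88, Ctsh at 7.73 and Tpp1, a tripeptidyl peptidase, at 4.10. The glycosidases were lower as a class, with a median of 2.83 CPM per kb against 12.2 for the 8 proteases. Neu1, which removes sialic acid, led them at 7.56 CPM per kb, followed by the alpha-mannosidase gene Man2b1 at 5.67, Glb1 at 5.01, Gusb at 3.34 and Gaa at 2.31. Hexa at 0.989 and Naglu, which degrades heparan sulfate, at 0.912 were near the median of all genes. Among lipid genes, Lipa, the acid lipase that frees cholesterol from its esters, was at 15.8 CPM per kb and the other 4 besides Psap lay between 2.65 (Ppt1, which removes palmitate from proteins) and 5.85 (Smpd1).

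Membrane proteins and regulators spread widely too. Lamp1 was at 27.3 CPM per kb, and Lamp2, its partner in the glycoprotein coat that lines the membrane, at 3.11. Cd63 was at 3.81, Scarb2 at 2.57 and Mcoln1 at 1.79 CPM per kb. Grn, whose product is cleaved to granulins in the lysosome, was at 11.3 CPM per kb, 1 of the higher values among the members. Levels in single dams differed by at most 5.59-fold (Smpd1) between the highest and the lowest in all members but Gla, which had no count in 1 dam.

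**Figure D1:**
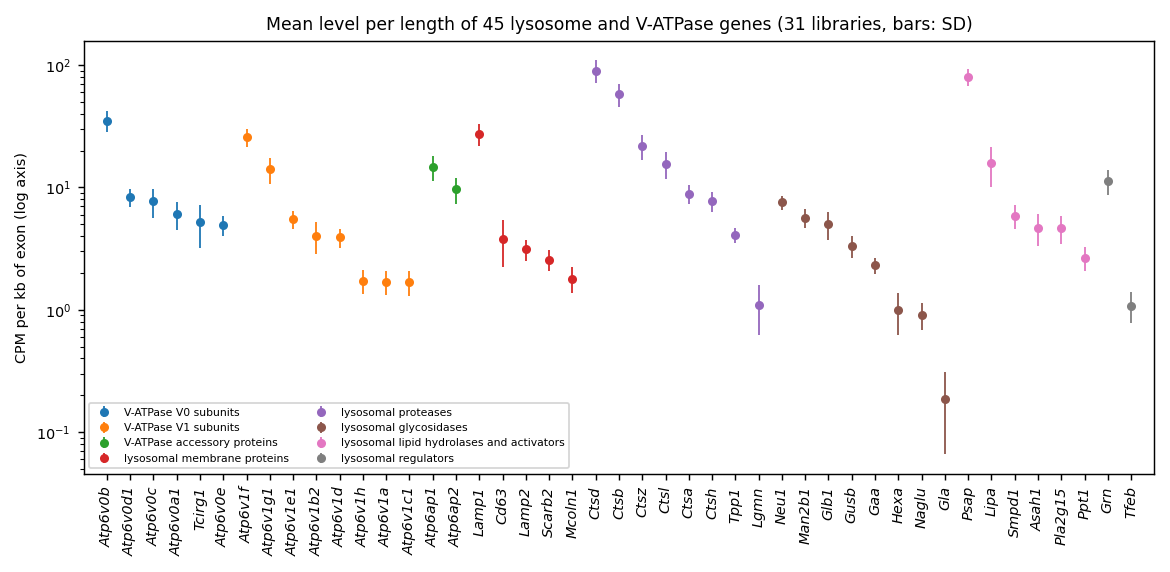
Mean level per length of each member over 31 libraries (CPM per kb of exon, log axis, bars show SD), coloured by function. Ctsd, Psap and Ctsb are highest, with Ctsd at 89.8, and Gla at 0.188 is the lowest.

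Within the pump, levels per length differed between subunits. The accessory proteins Atp6ap1 and Atp6ap2, which assist assembly, were at 14.7 and 9.64 CPM per kb. Atp6v0b, a proteolipid of the proton-carrying ring, was the highest V0 member at 35.1 CPM per kb, and Atp6v1f was the highest V1 member at 25.6. The ATP-binding subunit genes were lower, with Atp6v1a at 1.70 and Atp6v1b2 at 4.02 CPM per kb. Part of this order rests on annotation, since the exon union of Atp6v1a is 12429 bases long and that of Atp6v1f 1258.

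Several subunits have alternative isoform genes, and these data show which of them the lactating gland used. Of the transcripts for the a subunit, per kb, Atp6v0a2 made up 40.4% ± 6.17 (SD, n = 31), Atp6v0a1 32.1% ± 4.63 and Tcirg1 (the a3 isoform, known from the osteoclast ruffled border) 27.5% ± 8.18. The share of Tcirg1 was 24.2% ± 4.22 in the 16 saline dams and 31.1% ± 9.90 in the 15 fluoxetine dams, and the 2 ranges overlapped, from 18.3% to 32.9% and from 22.2% to 63.4%. The 63.4% belonged to dam 3 of FA diet with fluoxetine, a library that stood apart (described below), and without it the fluoxetine dams had 28.8% ± 4.38 (n = 14, up to 36.2%). The share of Atp6v0a2 was 43.6% ± 4.10 in saline dams and 37.0% ± 6.33 in fluoxetine dams (38.0% ± 5.29 without dam 3), again with overlap. Its level was alike, at 7.46 ± 0.773 CPM per kb with saline and 7.38 ± 1.51 with fluoxetine. The lower share went with higher mean levels of Tcirg1 (4.22 and 6.28 CPM per kb) and Atp6v0a1 (5.55 and 6.51). Of the C subunit transcripts, per kb, Atp6v1c1 and Atp6v1c2 made up about equal shares, 48.7% ± 10.4 and 51.3% ± 10.4. Their counts over all libraries were 13477 and 3733, so the equal shares rest on the annotated exon lengths. The other subunits relied mainly on 1 gene on average. Atp6v1b2 made up 96.4% of the B subunit transcripts, at least 88.7% in each saline dam but 28.8% in dam 3 of FA diet with fluoxetine. Atp6v0d1 made up 99.9% of the d subunit transcripts, Atp6v0e 98.5% of the e subunit, Atp6v1e1 99.8% of the E subunit and Atp6v1g1 98.2% of the G subunit.

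Dams of a group varied less in these genes than in the median gene. The within-group standard deviation of log2 CPM had a median of 0.334 over the members and 0.477 over all genes tested, and a gene with more counts has less counting error. Neu1 (neuraminidase) was the steadiest at 0.182, followed by Gaa (acid alpha-glucosidase) at 0.195. Gla varied most, at 0.961, on very few counts.

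Library depth ran from 15412542 to 36000439 counts, and milk protein transcripts dominated: the 20 most abundant genes took 61.7% to 82% of the counts in 30 libraries. All 7 markers of secretory epithelium passed the filter, with a summed level of 243317 to 744859 CPM in those 30 libraries. Dam 3 of FA diet with fluoxetine stood apart. Its 20 most abundant genes took 43.1%, its milk markers summed to 43289 CPM, its 8 macrophage markers to 290 CPM (46.5 to 93.9 elsewhere) and its 6 involution markers to 538 CPM (at most 106 elsewhere). Its TMM scaling factor was 3.04, and several results that rest on it are given below with and without it. By this share and the scaling factor, dam 13 of breeder diet with fluoxetine was the next furthest, at 61.7% and a factor of 1.57. Dam 9 of the same group differed more over all genes tested. It had 14.5% above and 15.7% below every saline dam, and dam 13 had 5.77% and 5.40%. In bulk tissue, fewer cells of a type and less RNA per cell cannot be told apart.

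The first comparison asked whether fluoxetine changed these transcripts, averaged over both diets. None of the 45 members passed a false discovery rate of 10% in edgeR, where 0.0209% of all genes tested did (3 genes). The number of genes called depended on the test: it was 45 by the edgeR likelihood ratio test, the kind the paper used, and 70 by DESeq2. With no adjustment, 7 members reached a p of 0.05, 4 higher and 3 lower under fluoxetine, against 9.92% of all genes (6.94% higher and 2.98% lower). The median log2 fold change over the members was -0.036, and over all genes tested 0.019. By function, 9 of the 16 V-ATPase genes had a positive log2 fold change and 7 of the 22 hydrolases and activators did, while 7 of the 8 glycosidases had a negative one, where 53.5% of all genes tested had a positive one. Markers of cell types leaned too: all 7 of secretory epithelium were negative (median -0.18), as were 4 of 5 of myoepithelium (median -0.24), and all 8 of macrophages were positive (median 0.25). Without dam 3 of FA diet with fluoxetine, 6 of 7 secretory, 5 of 5 myoepithelial and 6 of 8 macrophage markers were negative, as were 26 of the 45 members, with 48.4% of all genes positive. Macrophages are rich in lysosomes. The 8 macrophage markers, all past the filter, summed to 46.5 to 76.9 CPM in breeder diet dams with saline and 57.3 to 93.9 with fluoxetine, and to 62.0 to 88.4 CPM in FA diet dams with saline and 51.5 to 290 with fluoxetine. The part of these markers in the members' values was not tested.

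**Figure D2:**
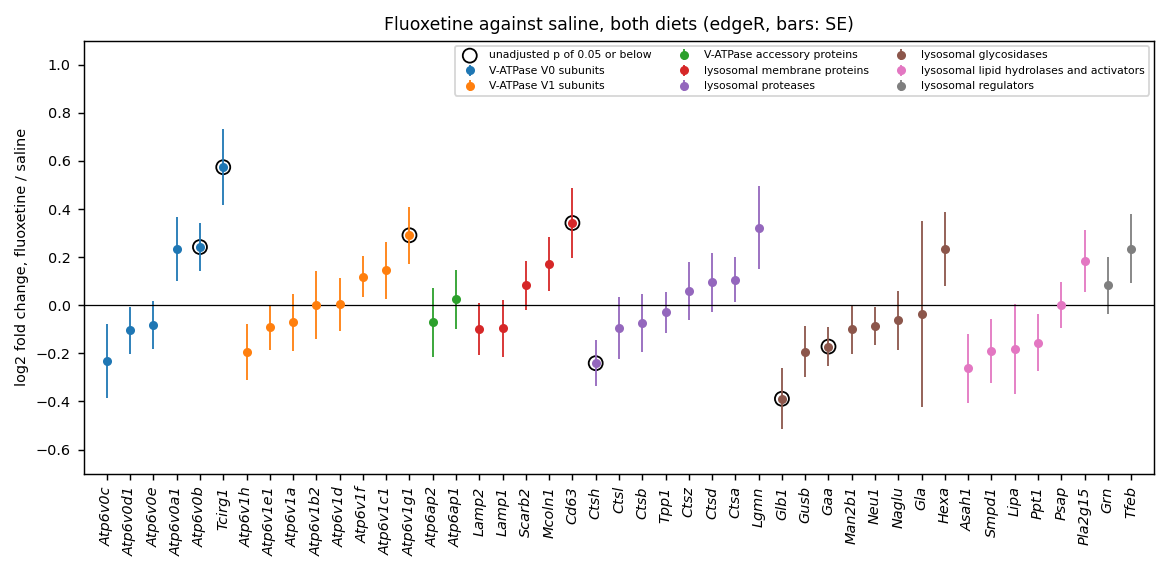
Log2 fold change of fluoxetine against saline over both diets for each member (points, edgeR, bars show SE), coloured by function, with circles around the 7 members at an unadjusted p of 0.05 or below. Tcirg1 is furthest above 0 at 0.57 and Glb1 furthest below at -0.39.

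Tcirg1 had the largest log2 fold change of the members and the smallest p. On the breeder diet its level ran from 19.6 to 42.3 CPM with saline (median 28.8) and from 30.7 to 68.6 with fluoxetine (median 44.0). On the FA diet it ran from 20.5 to 42.8 CPM with saline (median 28.9) and from 23.7 to 70.5 with fluoxetine (median 41.0). The groups overlapped on both diets, and 13 of the 15 fluoxetine dams exceeded the median of the saline dams fed alike. The log2 fold change was 0.57 (SE 0.16, 1.49-fold), with an unadjusted p of 0.000848 and an adjusted p of 0.277. It was nearly the same on either diet, 0.57 (SE 0.23) on the breeder diet and 0.58 (SE 0.22) on the FA diet. DESeq2, run as an alternative, gave 0.57 with an adjusted p of 0.0979, which made Tcirg1 the 1 member called by that tool, among 70 genes. Leaving out 1 library at a time kept the edgeR value of Tcirg1 between 0.49 and 0.62, with adjusted p no lower than 0.132.

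The other V-ATPase members with a small p were also higher under fluoxetine. Atp6v0b ran from 47.6 to 92.5 CPM in the 16 saline dams (median 67.2) and from 58.6 to 108 in the 15 fluoxetine dams (median 82.5). Its log2 fold change was 0.24 (SE 0.10, adjusted p = 0.430), and 12 of 15 fluoxetine dams exceeded that median. Atp6v1g1, a subunit of the stalk that joins the sectors, ran from 40.2 to 85.7 CPM with saline (median 65.5) and from 45.4 to 117 with fluoxetine (median 78.8). Atp6v1g1 had a log2 fold change of 0.29 (SE 0.12, adjusted p = 0.430). Saline and fluoxetine dams overlapped over most of the range for both genes. The remaining 13 V-ATPase members had log2 fold changes between -0.23 and 0.23, each with an unadjusted p above 0.05. Among these 13, 6 had a positive log2 fold change and 7 a negative one.

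**Figure D3:**
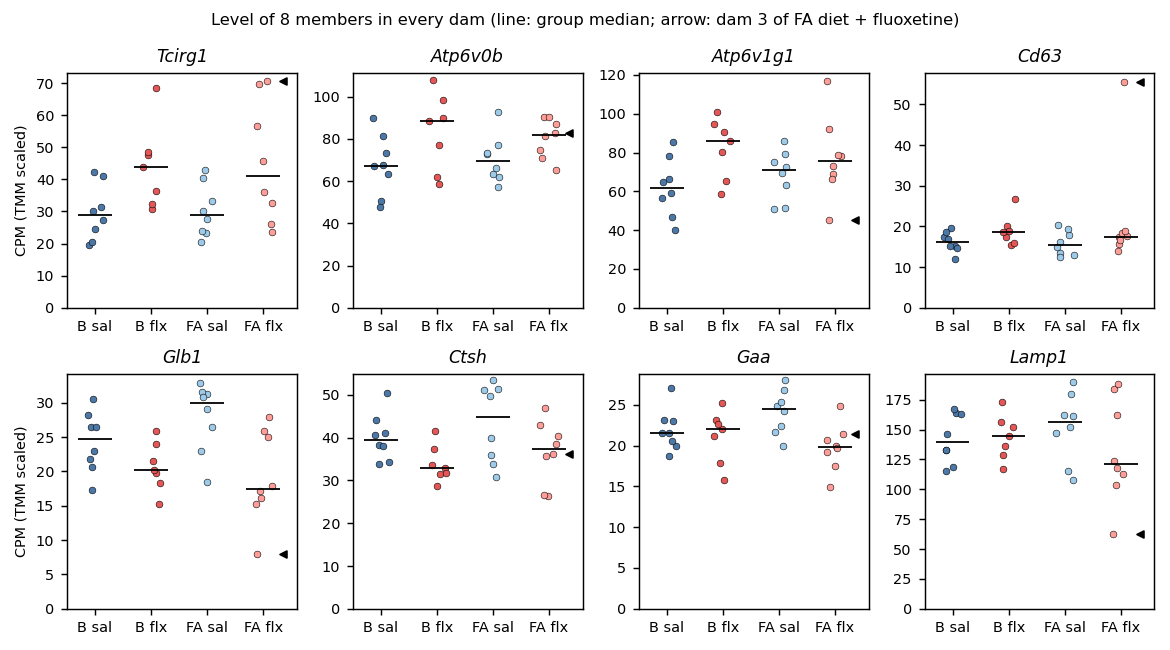
TMM-scaled CPM of 8 members in each dam (points) by group, where B is breeder diet, FA is FA diet, sal is saline and flx is fluoxetine, with lines at the group medians and an arrow at dam 3 of FA diet with fluoxetine. Tcirg1 runs to 70.5 CPM with fluoxetine and to 42.8 with saline, and a single dam sets the upper end of Cd63 at 55.5 CPM.

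Among the membrane proteins, Cd63, a tetraspanin of late endosomes and exosomes, had an unadjusted p below 0.05. It ran from 12 to 20.4 CPM with saline (median 15.7) and from 14 to 55.5 with fluoxetine (median 17.6). The log2 fold change was 0.34 (SE 0.14, adjusted p = 0.451). The 55.5 CPM belonged to dam 3 of FA diet with fluoxetine, and without that library the log2 fold change of Cd63 was 0.15. Lamp1, the most abundant of these membrane glycoproteins, had a log2 fold change of -0.095 (SE 0.12, adjusted p = 0.825), with saline dams from 108 to 190 CPM (median 149) and fluoxetine dams from 62.4 to 188 (median 136). The 62.4 CPM belonged to dam 3 of FA diet with fluoxetine, and without that library the log2 fold change of Lamp1 was -0.053. On the breeder diet alone the value of Lamp1 was 0.014, with the opposite sign.

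Of the proteases, Ctsh, a cysteine cathepsin with aminopeptidase activity, was lower with fluoxetine. It ran from 30.7 to 53.5 CPM with saline (median 40.4) and from 26.3 to 47.0 with fluoxetine (median 35.7). The log2 fold change was -0.24 (SE 0.096, adjusted p = 0.424), and 2 of the 15 fluoxetine dams exceeded the median of the saline dams fed alike. Lgmn was next by p, with saline dams from 5.28 to 14 CPM (median 7.93) and fluoxetine dams from 5.83 to 27.4 (median 8.93). Its log2 fold change was 0.32 (SE 0.17, adjusted p = 0.539), and 0.12 without dam 3 of FA diet with fluoxetine, which held the highest value. The abundant cathepsins Ctsb, Ctsd, Ctsl and Ctsz each had an unadjusted p above 0.05.

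Glycosidases held the other small p-values, all with lower levels under fluoxetine. Glb1, the beta-galactosidase that is lacking in gangliosidosis and gives the staining used to score senescence, ran from 17.3 to 32.9 CPM with saline (median 26.5) and from 8.00 to 27.9 with fluoxetine (median 19.7). Its log2 fold change was -0.39 (SE 0.13, adjusted p = 0.347), and 1 of the 15 fluoxetine dams exceeded the saline median for its diet. Dam 3 of FA diet with fluoxetine held the lowest value of Glb1, and without that library the log2 fold change was -0.34. Gaa, which breaks down lysosomal glycogen, ran from 18.7 to 28.1 CPM with saline (median 22.7) and from 14.9 to 25.2 with fluoxetine (median 20.7). For Gaa the log2 fold change was -0.17 (SE 0.080, adjusted p = 0.482). Gusb, beta-glucuronidase, had a log2 fold change of -0.19 (SE 0.11, adjusted p = 0.555), with medians of 19.0 CPM in saline and 16.0 CPM in fluoxetine dams. Hexa was the 1 glycosidase of 8 with a positive value. The groups overlapped for each of these genes.

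In lipid breakdown, cationic amphiphilic drugs are known to inhibit acid sphingomyelinase (encoded by Smpd1) and a lysosomal phospholipase (encoded by Pla2g15) as proteins. Neither had an unadjusted p of 0.05 or below at the level of RNA. Asah1, acid ceramidase, came closest in this group, with saline dams from 22.8 to 46.5 CPM (median 33.9) and fluoxetine dams from 14.8 to 52.2 (median 27.9). For Asah1 the log2 fold change was -0.26 (SE 0.14, adjusted p = 0.552). The 14.8 CPM belonged to dam 3 of FA diet with fluoxetine. Leaving out 1 library at a time kept the value of Asah1 between -0.369 and -0.219. The median of the 6 lipid genes was -0.17.

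Of the regulators, Tfeb ran from 3.64 to 9.38 CPM with saline (median 6.96) and from 4.73 to 12.4 with fluoxetine (median 7.30). Its log2 fold change was 0.24 (SE 0.14, adjusted p = 0.586), and 9 of 15 fluoxetine dams exceeded the saline median for their diet. The 7 members with the CLEAR core did not stand together: 3 had a positive and 4 a negative log2 fold change, with a median of -0.036, and the 31 members whose promoter lacked it had a median of -0.030. These values describe RNA and say nothing of whether TFEB protein entered the nucleus.

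The rest of the pathway, listed by function and not by how the genes moved, gave no call for fluoxetine either. The shares of all genes at an unadjusted p of 0.05 (9.92%, with 6.94% higher and 2.98% lower) are the background for the counts that follow, which are of 0 to 5 genes each. Of the 16 other V-ATPase subunits and assembly factors 11 were tested and 2 had an unadjusted p of 0.05 or below, both higher: Rogdi, an assembly factor, with a log2 fold change of 0.30 (SE 0.11, adjusted p = 0.388) and Atp6v1c2 with 0.28 (SE 0.13, adjusted p = 0.491). Of 30 other hydrolases 3 were higher and 2 lower at that p, led by the lysosomal nuclease Dnase2a at 0.33 (adjusted p = 0.302) and the mannosidase Manba at 0.49 (adjusted p = 0.424). Among 20 tested membrane proteins and sorting receptors 2 were higher and 1 lower, with Abcb9 at 0.39 (adjusted p = 0.424) and Laptm5 at 0.35 (adjusted p = 0.489). Of the 16 tested TFEB relatives and nutrient-sensing genes 2 were lower and none higher: Rraga, a GTPase that recruits the kinase mTOR to lysosomes, at -0.42 (SE 0.14, adjusted p = 0.365) and Rptor, a partner of mTOR, at -0.24 (adjusted p = 0.458). Of 15 autophagy genes 1 was higher and 2 lower, with Wipi1 at -0.23 (adjusted p = 0.461) and Atg7 at 0.24 (adjusted p = 0.478). None of 11 sterol response genes had such a p, and Srebf2 came closest at -0.13 (adjusted p = 0.681).

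The second comparison asked whether the FA diet changed these genes, averaged over saline and fluoxetine. None of the 45 members passed a false discovery rate of 10%, DESeq2 likewise called 0, and the share of all genes called was 0%. With no adjustment, 0 members and 5.08% of all genes reached a p of 0.05. The members' median log2 fold change was 0.021 and that of all genes 0.017. Mcoln1, the calcium channel of the lysosomal membrane, had the smallest p, with a log2 fold change of -0.22 (SE 0.11, adjusted p = 0.933). Its median was 14.6 CPM in the 15 breeder diet dams (range 10.4 to 19.6) and 11.9 CPM in the 16 FA diet dams (range 9.47 to 22.7), with dam 3 of FA diet with fluoxetine at the top. Without that dam the log2 fold change of Mcoln1 was -0.29. In that fit 3 members (6.67%) had an unadjusted p of 0.05 or below, near the 6.99% of all genes that did. Atp6v1f followed at 0.17 (SE 0.087, adjusted p = 0.933), then Naglu (0.22, adjusted p = 0.933), Scarb2 (-0.16, adjusted p = 0.933) and Pla2g15 (-0.19, adjusted p = 0.935). Between the saline groups alone, Atp6v1f was higher on the FA diet by 0.28 (adjusted p = 0.812) and Mcoln1 was lower, at -0.36 (adjusted p = 0.812).

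The third comparison asked whether the fluoxetine effect differed between diets. None of the 45 members passed a false discovery rate of 10% for the interaction (0% of all genes did), DESeq2 likewise called 0, and 0 had an unadjusted p of 0.05 or below, against 3.84% of all genes. The lowest p was that of Ctsa, protective protein cathepsin A, whose interaction was -0.35 (SE 0.19, adjusted p = 0.977). Its medians were 39.5 CPM with saline and 48.7 with fluoxetine on the breeder diet, and 44.9 and 46.6 CPM on the FA diet. The next were Atp6v1e1 (-0.31, adjusted p = 0.977), Atp6v0e (-0.31, adjusted p = 0.977), Atp6v1h (-0.36, adjusted p = 0.977) and Gaa (-0.23, adjusted p = 0.977), each negative. Leaving out dam 3 of FA diet with fluoxetine brought Atp6v1e1 to -0.252 and Atp6v1h to -0.260.

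No gene passed for the interaction, so its signs are given as a description. It was negative, that is, the fluoxetine value was lower on the FA than on the breeder diet, in 32 of the 45 members and in 14 of the 16 V-ATPase genes. The medians were -0.13 over the members and -0.22 over the V-ATPase genes, against 0.035 over all genes tested, of which 54.0% were positive. Some other lists leaned the same way: all 7 secretory epithelium markers were negative (median -0.27), as were all 5 skeletal muscle markers (median -1.90). So were 9 of the 11 sterol response genes (median -0.20) and 4 of the 5 myoepithelium markers. Positive were 6 of 8 macrophage, 5 of 6 adipocyte and 4 of 5 involution markers. The rest of the pathway leaned little. Of the other V-ATPase subunits and assembly factors 6 of 11 were positive (median 0.019), of the other hydrolases 15 of 30 (median -0.016). Negative were 8 of 15 autophagy genes, 12 of 20 other membrane proteins and sorting receptors, and 9 of 16 TFEB relatives and nutrient-sensing genes. Without dam 3 of FA diet with fluoxetine, 34 of the 45 members (median -0.13) and 14 of the 16 V-ATPase genes (median -0.14) were negative, where the median of all genes was -0.011 with 48.5% positive. Without it 6 of 7 secretory and 7 of 8 macrophage markers were negative, the latter with a median of -0.49. Negative signs were thus shared by some lists and not by others, and the part of the markers in them was not tested. Genes of 1 complex share dams and are not independent, so these counts are a description.

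**Figure D4:**
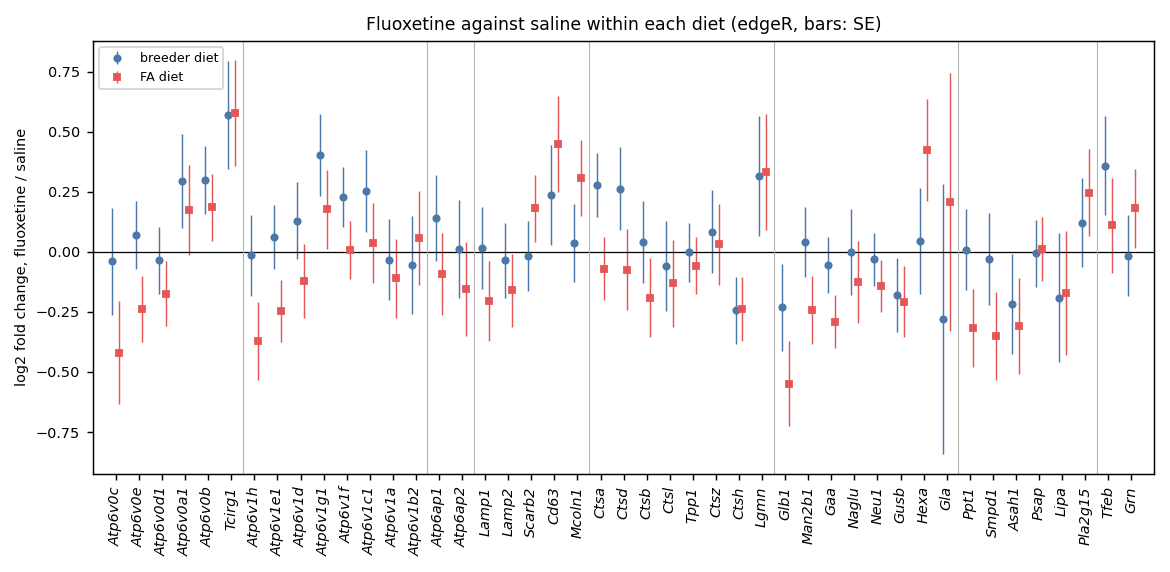
Log2 fold change of fluoxetine against saline on the breeder diet (circles) and on the FA diet (squares) for each member (edgeR, bars show SE), ordered within function by the interaction. Tcirg1 is alike on both diets (0.57 and 0.58), and for 32 of 45 members the square lies below the circle.

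Within each diet few members reached an unadjusted p of 0.05. On the breeder diet there were 4, all higher with fluoxetine (Tcirg1, Atp6v0b, Atp6v1g1 and Ctsa), where 4.39% of all genes had such a p (2.46% higher and 1.92% lower). Atp6v1g1 had a log2 fold change of 0.40 (SE 0.17), Atp6v0b 0.30 (SE 0.14) and Ctsa 0.28 (SE 0.13), each with an adjusted p of 1. On the FA diet there were 5, with Tcirg1 and Cd63 higher and Glb1, Gaa and Atp6v1h lower, where 9.98% of all genes had such a p (7.49% higher and 2.49% lower). Without dam 3 of FA diet with fluoxetine, 1 member was higher and 3 were lower on the FA diet at that p, where 428 of 14247 genes were higher and 442 (3.10%) lower. Glb1 had a log2 fold change of -0.55 (SE 0.18, adjusted p = 0.416), Gaa -0.29 (SE 0.11, adjusted p = 0.437) and Atp6v1h, a regulatory V1 subunit, -0.37 (SE 0.16, adjusted p = 0.461). Both diets drew on different dams, and the difference between diets is the interaction, which no member passed.

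Dam by dam, members outside the range of the saline dams were counted. In most fluoxetine dams these counts lay within those of single saline dams. The medians were higher, but they are not a like comparison. Each member has 1 highest and 1 lowest saline dam, which fixes the mean share of the saline dams. Few saline dams held most of it, with 28.9% of members above in dam 3 of breeder diet and 31.1% in dam 2 of FA diet. That lowers the saline median, so the medians are a description. The median share of members above was 2.22% in saline dams and 11.1% in breeder diet dams with fluoxetine. It was 6.67% in FA diet dams with fluoxetine other than dam 3. The median share below was 2.22%, 6.67% and 6.67% in the same order. Over all genes tested these medians were 6.25%, 5.77% and 7.65% above, and 5.52%, 5.96% and 5.36% below. Each saline dam, set against the other 15, had 0 to 14 members above all of them and 0 to 11 below. In the 7 dams of breeder diet with fluoxetine, 1 to 6 members lay above every saline dam and 0 to 11 below. In the 7 dams of FA diet with fluoxetine other than dam 3, these counts were 1 to 9 and 0 to 13. Over all genes tested, 2.61% to 10.5% lay above and 2.33% to 12.6% below in the saline dams, and 3.03% to 14.5% above and 2.69% to 15.7% below in these 14 fluoxetine dams. Dam 3 had 25 members below every saline dam and 6 above (Tcirg1, Cd63, Mcoln1, Lgmn, Hexa and Tfeb), that is, 55.6% and 13.3% of the members, against 25.6% and 26.3% of all genes tested. Its low milk transcript share makes these counts depend on scaling: as shares of all counts, with no TMM factor, 37 of the 45 members in that dam were above every saline dam and 1 below. On that scale the median of all genes in dam 3 moved by 1.57 on log2, and the median member by 1.06. A scaling factor shifts all genes of a library alike. The members' lower place relative to the other genes therefore holds on either scale and does not test the scaling.

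**Figure D5:**
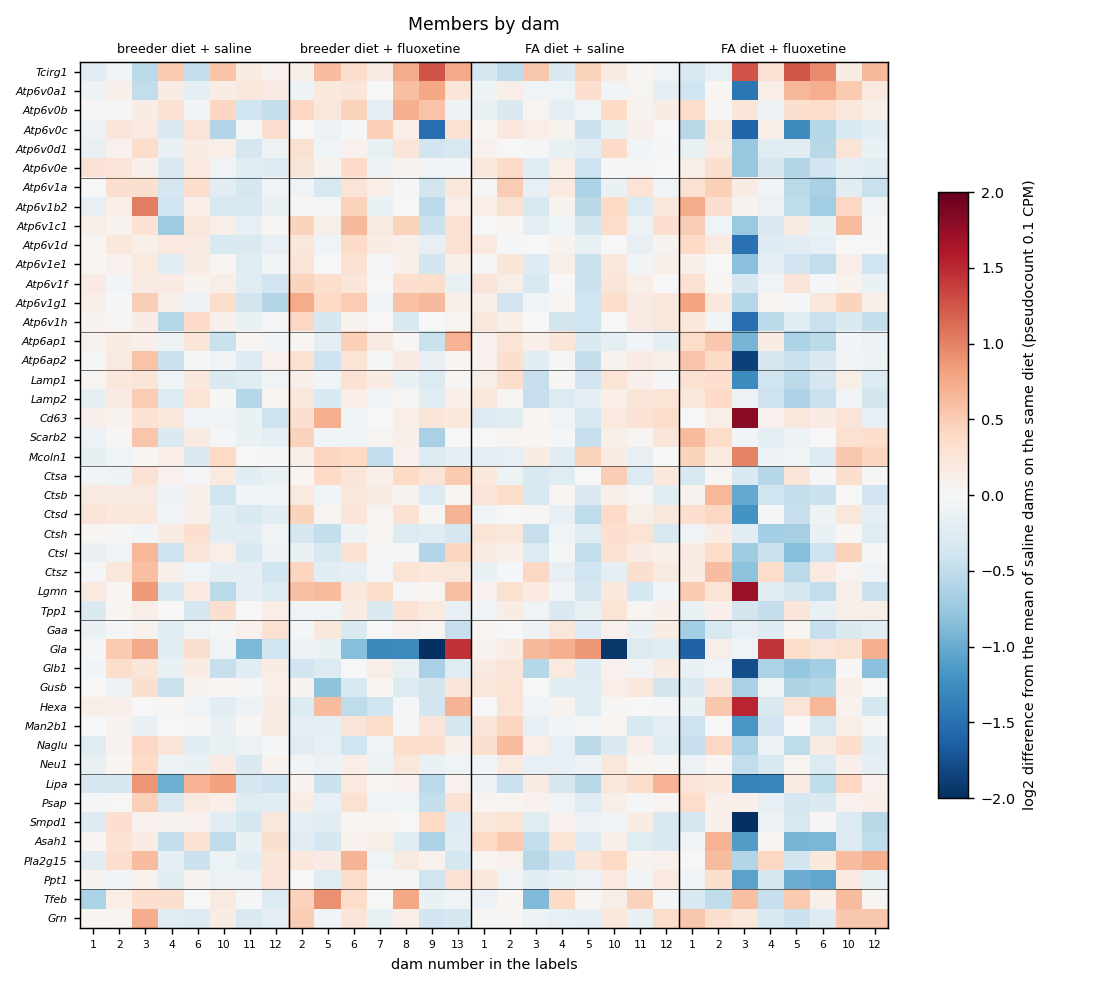
Log2 difference of each member from the mean of the saline dams on the same diet, for all 31 dams by group (pseudocount 0.1 CPM, red higher, blue lower, colours saturate at 2 in either direction). Dam 3 of FA diet with fluoxetine stands out, with 25 members below and 6 above every saline dam.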

How the data were processed

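Total RNA of mammary gland from 31 dams was sequenced. The authors trimmed reads with Trim Galore 0.4.4 (FastQC 0.11.7), aligned them with HISAT2 to GRCm39 and deposited raw htseq-count counts per Ensembl gene. The strand setting is not given in the sources used here, so reads of genes that overlap on opposite strands cannot be told apart. Members whose exons overlap a gene with at least 1000 counts in all in this way are Atp6v1a (Naa50), Atp6v1d (Pals1, Eif2s1), Atp6ap2 (1810030O07Rik), Lamp1 (Grtp1, 49.2% of exon bases), Ctsa (Pltp), Ctsb (Fdft1), Ctsz (Nelfcd), Gla (Rpl36a, Hnrnph2), Gusb (Vkorc1l1), Neu1 (1110038B12Rik) and Ppt1 (Cap1). Atp6v0c has annotated pseudogenes that could take or give reads.

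The 55379 rows were matched to GENCODE vM39, of which 667 had no match and kept their IDs. Groups follow the labels. The paper's methods exchange the sizes of the fluoxetine groups. Genes were filtered by group with filterByExpr, scaled by TMM and fitted with edgeR 4.0.16 (R 4.3.3, quasi-likelihood, robust) in 1 model of 4 groups, with 3 contrasts and Benjamini-Hochberg adjustment over 14362 genes at 10%. CPM are TMM scaled, and fold changes are log2 differences with SE from the F statistic. DESeq2 1.42.0, the edgeR likelihood ratio test, other filters, scalings and models and leaving out each dam were alternatives. The code was tested on simulated data.

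The members and lists were chosen with earlier results of these data known. Fold changes are printed for members with an unadjusted p of 0.05 or below in a contrast, for the smallest p until 10 members for fluoxetine and 5 for each other contrast, for Tfeb, Tcirg1 and Lamp1, and for 2 genes of each other list. Each dam is taken as 1 replicate, and no 2 libraries of a group agreed within counting noise. Promoters come from RefSeq (GRCm38.p6) and were placed on GRCm39 by exact match.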

Additional observations from a re-analysis of the deposited data

Results flagged for a closer look

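Single dams set the extreme of several members. Over 180 pairs of a member and a group, 12 had a highest or lowest dam further from the others than Dixon's 95% limit allows, and chance gives about 1 in 20, or 9.0 of them. Of the 12, 4 belonged to dam 3 of FA diet with fluoxetine, the library with few milk transcripts: Cd63 was highest there at 55.5 CPM (next 18.8), Lgmn at 27.4 (next 11.8) and Hexa, a subunit of beta-hexosaminidase, at 14.3 (next 7.79), while Smpd1 was lowest at 4.86 (next 15.3). Its summed macrophage and involution markers were also the highest of the series, and their part in these values was not tested. A further 4 belonged to dam 3 of breeder diet with saline, where Atp6v1b2 was highest at 55.7 CPM (next 30.0), Grn (progranulin) at 73.1 (next 48.3), Scarb2, a membrane receptor that delivers glucocerebrosidase, at 27.5 (next 21.0) and Lgmn at 14 (next 8.81). The other 4 were single values: Cd63 at 26.7 CPM in dam 5 and Gla at 1.84 CPM in dam 13, Smpd1 at 25.6 CPM in dam 9 (all of breeder diet with fluoxetine and the highest of their group), and Scarb2 at 11.3 CPM, the lowest of FA diet with saline, in dam 5.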

How the results depend on the processing

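No member was called for the FA diet or the interaction under any alternative run, and for fluoxetine DESeq2 alone called a member, 1 (Tcirg1, log2 fold change 0.573, adjusted p = 0.0979). The edgeR likelihood ratio test came close, with an adjusted p of 0.109 for Tcirg1. Leaving out 1 library at a time gave 0 called members throughout and 6 to 9 members at an unadjusted p of 0.05 or below for fluoxetine, with a median from -0.0722 to -0.00773. For the FA diet that count ran from 0 to 3 and for the interaction from 0 to 1. The 3 came without dam 3 of FA diet with fluoxetine, where 6.99% of all genes had that p. Lamp1 changed sign on the breeder diet alone (0.0144), and the cause was not tested. Dam numbers recur across groups, so a replicate block was fitted. It gave 0 called members, 10 at that p for fluoxetine (7 higher, 3 lower, median -0.0364), 4 for the FA diet and 2 for the interaction, and Tcirg1 at 0.383 (SE 0.184, adjusted p = 0.736). Shares of all genes at that p in the block fit and the other fits without 1 library are not given here, so those counts are a description. Over 28 same-numbered pairs r ran from -0.220 to 0.429, with 12 over 0.1. Their median r was 0.0791, against -0.00699 for other pairs of different groups. Of 27 libraries, 4 correlated best with their own number. These values show no clear pairing by number but cannot exclude a weak one. Without both libraries that stand apart, an alternative chosen after seeing the data, 0 members were called and the median was -0.0249. At that p for fluoxetine were 9 members (6 higher, 3 lower), where 9.47% of all genes were (5.67% higher and 3.81% lower). Depth limits Gla, with 460 counts in all.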

Other observations

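Of the V0 sector, the 3 dams with the most Tcirg1 were the 3 with the least Atp6v0c, a pattern chosen after its values were seen and given without a test. Dam 9 of breeder diet with fluoxetine had 68.6 CPM of Tcirg1 and 13.4 CPM of Atp6v0c. Dams 3 and 5 of FA diet with fluoxetine had 70.5 and 69.8 CPM of Tcirg1 and 14.8 and 18.7 CPM of Atp6v0c. The next dam had 56.5 CPM of Tcirg1, and the next lowest value of Atp6v0c was 25.8 CPM. Atp6v0a1, the isoform that shares the place of Tcirg1 in the pump, did not separate these dams, with 80.3, 16.6 and 72.2 CPM in the same order. Over all genes tested, 14.5%, 26.3% and 12.4% lay above every saline dam in these dams, and 15.7%, 25.6% and 11.4% below. Single saline dams had at most 10.5% above and 12.6% below the other saline dams. The part of this spread in the pattern was not tested.

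Atp6v1b1, Atp6v0a4 and Atp6v1g3 are pump isoforms that specialised acid-secreting cells such as kidney intercalated cells use. They were nearly silent, with an exception chosen after its values were seen. Atp6v1b1 had at most 24 counts in 30 libraries and 2422 counts (42.3 CPM) in dam 3 of FA diet with fluoxetine, where it made up 71.2% of the B subunit transcripts per kb. Atp6v0a4 had 26 counts in that library and 0 in the other 30. Atp6v1g3 had no count in any library.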
